A study of Homo sapiens with 12 samples.

Results

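HK-2 is a human kidney cell line, made from proximal tubular epithelium and immortalized. The arrays described here are those of the series' control cultures, which had received the vehicle alone, at 24 h and at 72 h after dosing. They were chosen by their labels and number 6 of 12 arrays, with 3 from control cells at 24 h and 3 from control cells at 72 h. The other 6 arrays come from cells given Ota at what is labelled its high dose, 3 at each time. Ota is a compound named only by that abbreviation. These 6 arrays serve below to show where its time course differs. They also entered the filter, the choice of probe sets and, in the main fit, the spread behind the p-values of control cells. The labels state neither the vehicle nor the amount or full name of Ota, and the control cells were therefore exposed to vehicle rather than wholly untreated. All cultures shared 1 cell line and 1 medium, an equal mixture of DMEM and Ham's F12 with 5 mM glucose, EGF at 10 ng/ml, hydrocortisone at 36 ng/ml, insulin and transferrin at 5 µg/ml each, selenite at 5 ng/ml and Glutamax at 2 mM. Cells were seeded at 700000 per well in 2 ml of medium 24 h before dosing and stood near 90% confluency when dosed. A change of medium during the 72 h is not mentioned in the labels. Replicates are labelled as biological, with no word on separate cultures, and p-values therefore reflect only how far these arrays differ among themselves, which may be technical.

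In the integrated stress response, kinases that sense missing amino acids, unfolded proteins or other stresses phosphorylate the translation factor eIF2, which slows protein synthesis but favours translation of the transcription factor ATF4. ATF4 then switches on amino acid transporters, amino acid and one-carbon synthesis, tRNA charging and the factor CHOP. In the unfolded protein response, the sensors IRE1, PERK and ATF6 of the endoplasmic reticulum (ER) raise chaperones, disulfide enzymes and the machinery of ER-associated degradation (ERAD). Passage through the cell cycle is driven by E2F factors, which switch on replication genes, and by the DREAM and FOXM1 complexes, which control mitotic genes through promoter elements named CDE and CHR. Thioredoxin-interacting protein, made from TXNIP, is a restraint on glucose uptake whose gene is driven by the glucose-sensing factor MondoA.

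Values are log2 GCRMA expression values as deposited, and 10729 genes with 1 probe set each were tested. Genes are said to have risen or fallen at an adjusted p under 0.05 in limma, and sizes are log2 fold changes (72 h minus 24 h) ± SE, whose median was 0.212. The 3 arrays of 1 control group correlated at 0.985 to 0.994 and arrays of different times at 0.946 to 0.956. The first principal component of the 6 arrays held 77.3% of the variance and separated the times. Arrays of 24 h had a median over tested genes of 7.966 ± 0.0524 (SD, n = 3) and those of 72 h one of 7.963 ± 0.0225, with an exact permutation p of 1. These are medians of values already normalized, so they do not show whether total RNA per cell moved with time. Poly-A spike-ins, hybridization controls, 18S probe sets and the 3' minus 5' differences of ACTB and GAPDH had exact permutation p-values of 0.2 to 1, where 3 against 3 arrays cannot go below 0.1. Cell type markers showed an epithelial line with little of the mature tubule, though some markers of other cell types were also high. Of 10 epithelial markers 9 were measured, among them EPCAM with means of 12.69 at 24 h and 13.30 at 72 h and the kidney factor gene PAX8 with 10.08 and 9.58, while PAX2 lay under 4, the level set for the filter, on all control arrays. Of 10 mature proximal tubule markers found on the array 9 lay under 4 on all 6 control arrays, including CUBN, LRP2 and AQP1, and the amino acid transporter gene SLC3A1 was the exception with means of 8.72 and 9.11. All 6 leukocyte markers found, 7 of 8 endothelial and 5 of 6 distal tubule markers were under 4 on all control arrays. So were 5 of 8 fibroblast and 2 of 5 podocyte markers found. By contrast, the fibroblast markers DCN (11.34), LUM (9.04) and COL1A1 (8.11) and the podocyte marker PTPRO (12.44) had high means at 24 h.

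Many genes changed in control cells between 24 h and 72 h, with INHBE the largest rise and TXNIP the largest fall. Of the 10729 genes 1313 rose (12.2%) and 1426 fell (13.3%), 2739 in all (25.5%). With the 6 control arrays fitted alone, so that the spread came from them only, 2112 rose and 2235 fell of 10387 genes. A log2 fold change of at least 1 was reached by 586 risen and 624 fallen genes, and one of at least 3 by 24 and 8. The 3 arrays of 72 h all lay above the 3 of 24 h for 2828 genes (26.4%) and all below for 2907 (27.1%). Counts of list members given below are to be read beside these shares and the 12.2% risen and 13.3% fallen. The median of all genes was 0.00042, in values already normalized.

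**Figure D1:**
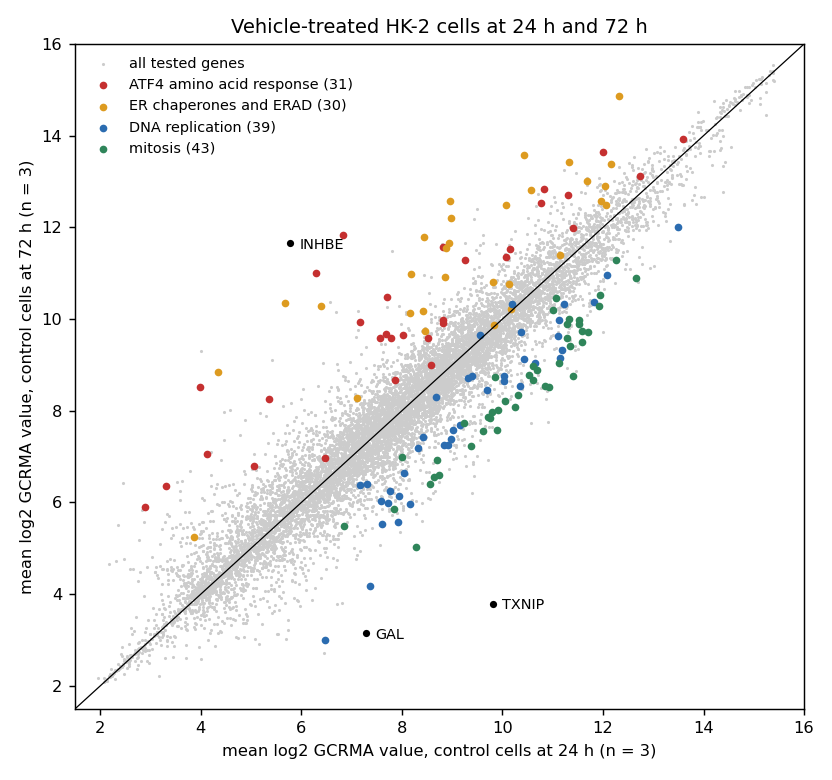
Mean log2 GCRMA value of each of the 10729 tested genes in control cells at 24 h (horizontal) and 72 h (vertical), 3 arrays each, with members of 4 gene lists in colour and the line of equal values. ATF4 and ER genes lie above the line, replication and mitosis genes below it except for 2 replication genes, and INHBE, TXNIP and GAL lie far from it.

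The largest rise was that of INHBE, which encodes the beta E subunit of the activin and inhibin family of secreted proteins. Its values were 6.02, 5.35 and 5.97 at 24 h and 11.58, 11.56 and 11.83 at 72 h, so that the groups lay far apart (58.8-fold; 5.88 ± 0.38, limma adjusted p = 2.03e-06). ATF3, a stress-induced transcription factor gene, stood at 3.86, 3.56 and 4.60 at 24 h and at 9.10, 9.17 and 9.61 at 72 h (5.29 ± 0.25). DDIT3, which encodes CHOP, went from 6.68, 7.08 and 6.69 to 11.74, 11.73 and 12.04 (5.02 ± 0.31). SLC7A11, the cystine and glutamate exchanger gene, went from 6.32, 5.98 and 6.59 to 10.93, 11.02 and 11.07 (4.71 ± 0.22). In each of these genes every 72 h array was above every 24 h array, a condition of being named here. The other 8 of the 12 largest rises were SDF2L1 (4.67), an ER chaperone partner, the mitochondrial folate enzyme gene ALDH1L2 (4.53), the ER oxidase gene ERO1B (4.51), the secretory granule chaperone gene SCG5 (3.97), ERN1 (3.89), which encodes IRE1, the co-chaperone gene DNAJC12 (3.82), the vesicle release gene CADPS2 (3.68) and BEX2 (3.68). At 24 h ALDH1L2 and SCG5 had means under 4, ATF3 had arrays at 3.86 and 3.56, and ERO1B had a mean of 4.34. The sizes and order of these rises are therefore uncertain.

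The largest fall was that of TXNIP. Its values were 9.91, 9.62 and 9.91 at 24 h and 4.31, 3.72 and 3.34 at 72 h (-6.02 ± 0.41, limma adjusted p = 2.9e-06), so that a bright signal came down to the filter level. GAL, which encodes the neuropeptide galanin, went from 7.40, 7.49 and 6.99 to 3.51, 2.53 and 3.39 (-4.15 ± 0.30), and the sodium channel gene SCN3A from 6.58, 6.21 and 6.56 to 2.84, 2.54 and 2.75 (-3.74 ± 0.41). The means of TXNIP, GAL and SCN3A at 72 h were under 4, as were those of GINS4, POLQ and BLM below, so the sizes and order of these 6 falls are uncertain. Of the other 9 largest falls 8 serve replication, repair, chromatin or chromosome segregation: GINS4 (-3.47) and MCM10 (-3.19) of the replication fork, the condensin gene NCAPH (-3.26), the kinetochore gene SPC25 (-3.20), the polymerase gene POLQ (-2.98) and the helicase gene BLM (-2.92) of repair, the histone chaperone gene ASF1B (-2.85) and UHRF1 (-2.84), needed to keep DNA methylation through replication. CRYM, which encodes the thyroid hormone binding protein mu-crystallin, was the exception, with values of 10.97, 10.98 and 10.78 at 24 h and 7.85, 7.69 and 7.73 at 72 h (-3.15 ± 0.19). Among genes with means over 6 at both times, the serine protease gene PRSS23 (-2.79), the cytokinesis gene ANLN (-2.63), the thymidine kinase gene TK1 (-2.61) and the membrane protein gene TM4SF1 (-2.60) were also among the largest falls, and CRELD2 (3.61), the branched-chain aminotransferase gene BCAT1 (3.48) and HYOU1 (3.34) among the largest rises.

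**Figure D2:**
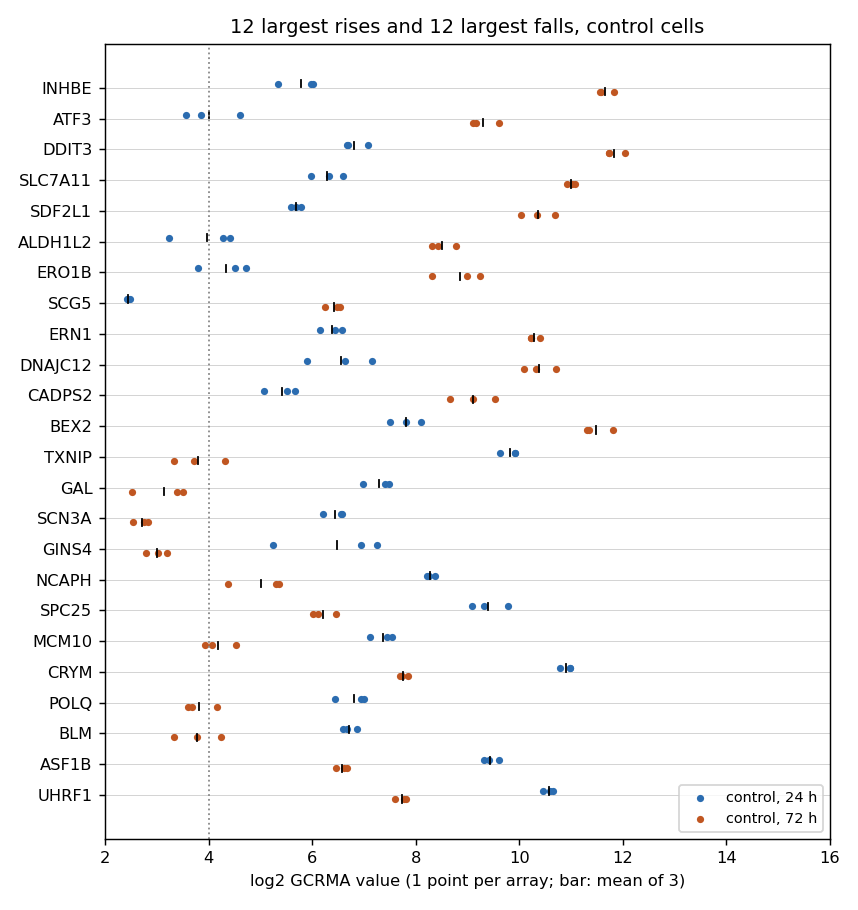
Log2 GCRMA values of the 12 largest rises and 12 largest falls in control cells, with 1 point per array at 24 h (blue) and 72 h (red), bars at the means of 3 and a dotted line at the filter level of 4. The points of the times do not overlap for any gene shown, which the rule for choosing them required.

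By list, 28 of 31 measured genes of the ATF4 amino acid response rose and 0 fell, with a median of 1.77 against 0.00042 over all genes. On 30 of the 31 the 72 h arrays lay wholly above the 24 h arrays. ATF4 itself rose, from 11.96, 12.13 and 11.93 to 13.47, 13.77 and 13.67 (1.63 ± 0.14, limma adjusted p = 1.21e-05). Among transporters, SLC7A5 (2.91 ± 0.30) and its heavy chain partner SLC3A2 (2.79 ± 0.19) rose beside SLC7A11. Among enzymes, ASNS, which makes asparagine, went from 8.68, 9.05 and 8.72 to 11.66, 11.43 and 11.61 (2.75 ± 0.25). Serine synthesis was represented by PHGDH (1.08), PSPH (1.17) and PSAT1 (0.58), and the mitochondrial folate cycle by MTHFD2 (1.77), SHMT2 (1.36) and ALDH1L2. The call of PSAT1 ended without 24 h replicate 1 or 2 or 72 h replicate 1 or 2 (0.52 to 0.59). The transsulfuration genes CTH (2.77) and CBS (0.81) rose, as did CHAC1, which degrades glutathione, from 3.07, 3.77 and 3.07 to 6.43, 6.12 and 6.52 (3.05 ± 0.29). Of partner and feedback factors, CEBPB (1.42), CEBPG (1.99), NUPR1 (3.01) and the pseudokinase gene TRIB3 (2.00) rose, and so did the secreted glycoprotein gene STC2 (2.93). Fewer members could be tested without probe sets ending in _x_at or _s_at, and all 19 of those then rose.

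Promoters of this response show how the elements lie. A composite element for ATF4 and C/EBP factors, searched as TGATGNAA on both strands in the 250 bases before the RefSeq start, was held by 2 of 25 list members with a window (8%), by 3.19% of all 27305 windows and by 1.38% of 8890 windows of tested genes. Of the 123 tested genes that held it 23 rose and 17 fell (median 0.03), and of the 121 outside the list 21 rose and 17 fell (median 0.019). The 2 list members are printed from RefSeq's GRCh38.p14 with the match in capitals, since ASNS is a textbook ATF4 target and CHAC1 rose from near background. The CHAC1 window is chr15:40953221-40953470 (+ strand), with the match, on the opposite strand, starting at base -209 before the start, and the ASNS window is chr7:97872409-97872658 (- strand), with the match at -68. A match describes these letters and not a bound site.
CHAC1: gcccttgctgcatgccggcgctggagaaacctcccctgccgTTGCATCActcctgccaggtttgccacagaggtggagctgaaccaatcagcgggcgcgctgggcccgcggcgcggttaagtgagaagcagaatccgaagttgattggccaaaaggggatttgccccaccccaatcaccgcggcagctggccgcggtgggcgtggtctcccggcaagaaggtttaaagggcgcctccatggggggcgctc
ASNS: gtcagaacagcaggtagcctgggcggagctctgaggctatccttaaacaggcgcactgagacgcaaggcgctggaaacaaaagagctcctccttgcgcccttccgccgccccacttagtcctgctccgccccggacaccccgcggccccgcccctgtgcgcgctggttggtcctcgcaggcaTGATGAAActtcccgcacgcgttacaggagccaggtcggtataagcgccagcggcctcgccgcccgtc

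Genes for aminoacyl-tRNA synthetases, which load amino acids onto tRNAs, rose in part. Of 18 measured 10 rose and 0 fell, at a median of 0.61. WARS1, for tryptophan, went from 9.33, 9.25 and 9.18 to 11.70, 11.40 and 11.88 (2.40 ± 0.18, limma adjusted p = 5.02e-06). AARS1 (2.04), SARS1 (1.80), CARS1 (1.5), YARS1 (1.43), GARS1 (1.38) and IARS1 (0.93) also rose, and of the 8 others HARS1 was lowest at -0.51. For YARS1 the rise did not pass with probe sets ending in _x_at or _s_at left out (0.30).

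Of 30 measured genes for ER chaperones and ERAD 26 rose and 0 fell, at a median of 2.02. HSPA5, which encodes the chief ER chaperone BiP, went from 12.58, 12.08 and 12.28 to 14.82, 14.81 and 14.94 (5.83-fold; 2.54 ± 0.16, limma adjusted p = 1.92e-06). SDF2L1 went from 5.78, 5.59 and 5.69 to 10.34, 10.04 and 10.68. CRELD2 went from 8.95, 8.99 and 8.93 to 12.34, 12.27 and 13.10. In each the groups lay apart. Further chaperones and disulfide enzymes that rose were HYOU1 (3.34), HSP90B1 (2.09), PDIA4 (2.66), the co-chaperones DNAJB9 (3.22) and DNAJC3 (2.79), and the secreted protein gene MANF (2.72). ERAD was represented by HERPUD1, from 10.61, 10.22 and 10.43 to 13.62, 13.40 and 13.69 (3.15 ± 0.23). All measured sensors and factors on the list rose: ERN1 (3.89), ATF6 (1.27) and XBP1 (2.07 ± 0.32). The other probe set of XBP1 had a value of -0.32. ERO1B rose from 4.72, 3.79 and 4.52 to 8.99, 8.32 and 9.24, while its paralog ERO1A did not pass (0.04, with the sign turned without 24 h replicate 2 or 72 h replicate 3).

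The ER stress element is bound by ATF6 together with NF-Y, and was searched as CCAAT, then 9 bases of any kind, then CCACG. On either strand of the 250 bases before the start it was found in 22 of 27305 windows (0.0806%) and in 7 of 26 members of the ER list with a window (26.9%). Among all tested genes 13 held it, and of these 11 rose and 0 fell, with a median of 2.01. The 7 ER list members are among the 13, and of the 6 others 4 rose and 0 fell, with a median of 0.97. The 11 were ERO1B (4.51), CRELD2 (3.61), FICD (2.91), HSPA5 (2.54), HSP90B1 (2.09), XBP1 (2.07), SERP1 (2.01), EIF2A (0.99), ALG12 (0.95), CANX (0.86) and CALR (0.62). TRIM5 (0.60 ± 0.35) and TMEM120A (-0.10 ± 0.33) did not pass. The calls of CALR and ALG12 were the least firm, since CALR did not pass without any 1 of the 6 control arrays (0.53 to 0.69) and ALG12 did not without 24 h replicate 1 or 2 or 72 h replicate 2 or 3 (0.68 to 0.93). The windows of the members with the largest rises are printed because the element sits in them at different distances and in the same orientation, as its reverse complement. The ERO1B window is chr1:236281959-236282208 (- strand) with the match from -243, and the CRELD2 window is chr22:49918384-49918633 (+ strand) with the match from -80, both of GRCh38.p14 from RefSeq with the match in capitals.
ERO1B: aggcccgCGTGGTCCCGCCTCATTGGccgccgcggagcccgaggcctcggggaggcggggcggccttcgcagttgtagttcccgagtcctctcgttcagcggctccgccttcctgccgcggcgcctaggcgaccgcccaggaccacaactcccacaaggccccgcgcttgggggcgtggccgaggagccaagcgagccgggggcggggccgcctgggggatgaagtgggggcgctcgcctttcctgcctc
CRELD2: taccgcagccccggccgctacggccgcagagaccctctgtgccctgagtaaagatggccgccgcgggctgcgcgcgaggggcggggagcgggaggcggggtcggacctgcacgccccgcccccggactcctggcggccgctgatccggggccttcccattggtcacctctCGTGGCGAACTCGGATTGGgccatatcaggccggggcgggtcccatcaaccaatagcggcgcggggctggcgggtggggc

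**Figure D3:**
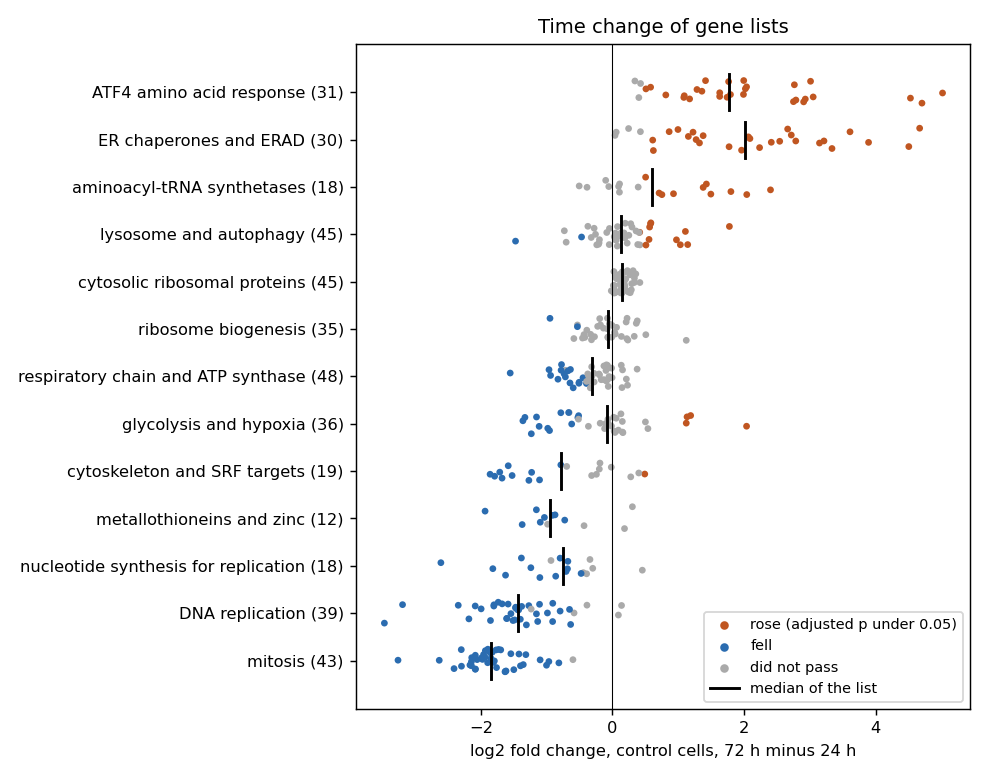
Log2 fold change (72 h minus 24 h, control cells) of each measured member of 13 gene lists, with 1 point per gene, coloured by limma's call, and a bar at the list's median. All members that passed rose in the ATF4 list (28 of 31) and the ER list (26 of 30) and fell in the mitosis list (42 of 43) and the replication list (34 of 39), and 0 of 45 ribosomal protein genes passed.

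Cell division genes fell together. Of 43 measured mitosis genes 42 fell and 0 rose, at a median of -1.85, and on all 43 the 72 h arrays lay wholly below the 24 h arrays. MKI67, which encodes the proliferation marker Ki-67, went from 10.95, 11.19 and 10.65 to 8.59, 8.75 and 8.22 (-2.41 ± 0.24, limma adjusted p = 3.96e-05), a 5.31-fold lower level. CCNB1, the cyclin B1 gene, went from 11.50, 11.69 and 11.91 to 9.55, 9.92 and 9.69 (-1.98 ± 0.30), and its kinase CDK1 from 11.56, 11.31 and 11.70 to 9.91, 10.34 and 9.68 (-1.54 ± 0.20). The groups were separate in each. The motor gene KIF20A (-2.30), the spindle gene DLGAP5 (-2.30), the kinases AURKA (-2.08) and PLK1 (-1.99), the topoisomerase gene TOP2A (-1.62), BIRC5 (-2.17) and the transcription factor gene FOXM1 (-2.14) fell with them. CDC25B, a phosphatase gene, was the member that did not pass (-0.60).

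The CHR element, TTTGAA on either strand, was held by the windows of 21 of 37 mitosis genes (56.8%), 13.6% of all windows and 8.41% of those of tested genes. Of the 748 tested genes with it 144 fell and 88 rose, at a median of -0.05. Outside the mitosis list 727 held it, of which 123 fell and 88 rose (median -0.035). A CCAAT box, CCAAT on either strand, was held by 27 of the 37 (73.0%), 33.0% of all windows and 35.9% of those of tested genes. Of the 3195 tested genes with a CCAAT box 501 fell and 416 rose, at a median of -0.01. Among the 3168 of these outside the list 474 fell and 416 rose (median -0.009). ANLN and MKI67, the list's largest falls with the CHR letters, are printed with those letters in capitals, because both carry them at 2 places within 50 bases of the start. The ANLN window is chr7:36389612-36389861 (+ strand) with matches from -26 and -20 that adjoin, and the MKI67 window is chr10:128126424-128126673 (- strand) with matches from -47 and -29, from RefSeq's GRCh38.p14.
ANLN: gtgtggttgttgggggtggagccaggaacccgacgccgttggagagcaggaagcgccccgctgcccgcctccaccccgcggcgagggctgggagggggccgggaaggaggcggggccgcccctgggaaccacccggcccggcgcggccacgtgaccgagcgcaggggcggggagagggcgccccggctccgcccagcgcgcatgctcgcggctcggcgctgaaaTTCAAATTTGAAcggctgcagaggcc
MKI67: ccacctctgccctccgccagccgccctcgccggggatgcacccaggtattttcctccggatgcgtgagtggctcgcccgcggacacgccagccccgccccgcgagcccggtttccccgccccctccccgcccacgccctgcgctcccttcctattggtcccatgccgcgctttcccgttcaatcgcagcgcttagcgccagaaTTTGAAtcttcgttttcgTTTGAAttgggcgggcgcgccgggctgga

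Of 39 measured DNA replication genes 34 fell and 0 rose, at a median of -1.44. All 6 subunits of the MCM2 to MCM7 helicase fell, from -1.11 for MCM2 and -1.16 for MCM3 through -1.31 for MCM5, -1.44 for MCM6 and -1.47 for MCM7 to -1.61 for MCM4. PCNA, the sliding clamp gene, went from 13.61, 13.12 and 13.72 to between 11.84 and 12.16 on the 3 arrays of 72 h (-1.49 ± 0.20, limma adjusted p = 0.000277). MCM10, which joins the fork when it fires, went from 7.45, 7.12 and 7.54 to 3.93, 4.53 and 4.07. GINS4 went from 5.24, 7.25 and 6.94 to 2.80, 3.02 and 3.20, with a wide spread at 24 h. The origin gene ORC1 (-2.35), CDC45 (-2.18) and the polymerase alpha gene POLA2 (-2.09) also fell. The members that did not pass were RFC3 (-1.24), CDT1 (-0.58), CDC6 (-0.39), PRIM1 (0.09) and RFC5 (0.14). RFC3 passed with quantile normalization, with centring and in the 6 control arrays alone. RFC5 has 3 probe sets of which only the chosen one had a positive change, and their mean fell (-0.93, limma adjusted p = 0.00685). Of 18 genes of nucleotide synthesis 12 fell and 0 rose (median -0.75), with TK1 (-2.61), the thymidylate synthase gene TYMS (-1.82) and the ribonucleotide reductase genes RRM2 (-1.63) and RRM1 (-1.24) lowest. An E2F site, searched as TTTCCCGC, TTTGGCGC, TTCCCGCC or TTTCGCGC on both strands, was held by 15 of 35 replication genes (42.9%), 4.37% of all windows and 7.45% of those of tested genes. Of the 662 tested genes with an E2F site 125 fell and 60 rose, at a median of -0.11. Among the 647 of these outside the replication list 113 fell and 60 rose (median -0.101). The window of POLA2, chr11:65261712-65261961 (+ strand) of GRCh38.p14, is printed as the largest fall among the replication genes that held it, with the match from -53 in capitals.
POLA2: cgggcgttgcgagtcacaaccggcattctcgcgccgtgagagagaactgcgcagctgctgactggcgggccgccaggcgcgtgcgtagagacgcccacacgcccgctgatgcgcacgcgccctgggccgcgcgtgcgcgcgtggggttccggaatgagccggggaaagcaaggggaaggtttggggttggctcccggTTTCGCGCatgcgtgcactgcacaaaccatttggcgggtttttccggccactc

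Regulators of entry into the cycle changed unequally. Of 29 G1 cyclin, E2F and CDK inhibitor genes 12 fell and 2 rose (median -0.32). Cyclin E genes CCNE1 (-2.33) and CCNE2 (-1.85), CCND1 (-1.43 ± 0.35) and CDK2 (-1.71) fell, as did E2F8 (-2.60), E2F2 (-2.23) and E2F7 (-1.98). E2F1 (-0.64), CDK4 (-0.12) and MYC (0.21 ± 0.17) did not pass, although E2F1 passed without 24 h replicate 3 (-0.95). The inhibitor genes CDKN1B (0.35 ± 0.21) and CDKN1A (0.42 ± 0.19) did not pass either, and CDKN1A passed in the 6 control arrays alone. The antiproliferative gene BTG1 rose (1.12), as did CCNG1 (0.44), whose call ended without 24 h replicate 1 or 2 or any 1 of the 72 h arrays (0.38 to 0.47). Of 18 tested replication-dependent histone genes, whose transcripts mostly lack poly-A tails, only 7 passed the filter in the 6 control arrays alone. The mean level of the 18 was 4.08 at 24 h and 4.04 at 72 h, near the filter level, so most could hardly show a fall. In the fit of all arrays 2 fell, H1-2 (-1.83) and H2BC9 (-1.5), and 2 rose, H2AC6 (2.89) and H2BC12 (0.60). The call of H2BC12 ended without 24 h replicate 1 or any 1 of the 72 h arrays (0.46 to 0.64). Of 21 p53 targets 6 rose and 0 fell, of which GDF15 (2.23), SESN2 (1.63) and TNFRSF10B (1.20) are also induced by ATF4 or CHOP. In the 6 control arrays alone 6 p53 targets rose and 5 fell.

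Genes of glucose use were lower at 72 h in part. Of 8 genes on the MondoA list 4 fell, TXNIP by far the most, with the transcription factor gene KLF10 (-1.67) and the arrestin genes ARRDC4 (-1.21) and ARRDC3 (-0.96). ARRDC4 had values of 5.09, 4.32 and 5.23 and then 3.55, 3.52 and 3.94, near the filter level, and its call ended without 24 h replicate 1 or 3 or 72 h replicate 1 or 2 (-1.15 to -1.04). The E-box CACGTG, the core of the MondoA element, was held by the windows of 2 of 7 list members with one, ARRDC4 and MLX. MLX did not pass (0.66). The E-box was held by 6.49% of all windows and 9.29% of those of tested genes. Of the 826 tested genes with it 134 rose and 96 fell, at a median of 0.06. Among the 824 of these outside the list 134 rose and 95 fell (median 0.059). The window of ARRDC4, chr15:97960453-97960702 (+ strand) of GRCh38.p14, is printed because it is the fallen member with the match, in capitals at -210.
ARRDC4: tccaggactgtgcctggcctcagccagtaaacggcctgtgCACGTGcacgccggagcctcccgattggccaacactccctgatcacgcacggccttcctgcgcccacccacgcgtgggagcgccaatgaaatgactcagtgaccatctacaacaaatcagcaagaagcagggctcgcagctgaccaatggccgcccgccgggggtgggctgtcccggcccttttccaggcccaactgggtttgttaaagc

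Of 36 glycolysis and hypoxia genes 12 fell and 4 rose, beside 13.3% and 12.2% of all genes. The glycolytic enzymes PKM (-1.36 ± 0.18), HK1 (-1.33), GPI (-1.16), PGAM1 (-1.11), LDHA (-0.79) and ENO1 (-0.62) fell, while GAPDH did not pass (-0.10 ± 0.22) and HK2 rose (1.12). PKM went from 12.89, 12.86 and 12.41 to 11.41, 11.43 and 11.24, with no overlap. The angiogenic growth factor gene VEGFA, which ATF4 also induces, rose from 9.31, 8.80 and 9.66 to 11.20, 11.12 and 11.57 (2.04 ± 0.25), and the hypoxia gene EGLN3 fell (-1.23). Of 48 genes of the respiratory chain and ATP synthase 16 fell and 0 rose, at a median of -0.32, led by ATP5MC1 (-1.55) and SDHA (-0.96), and 5 fell with arrays scaled to their poly-A spike-ins. Cytosolic ribosomal protein genes had small differences of mostly 1 sign. Of 45 measured 0 passed in limma's fit of all arrays, and 7 rose and 0 fell in the 6 control arrays alone. Of the 45, 44 were above 0 (median 0.14, highest 0.42), and for 30 the 72 h arrays lay wholly above the 24 h arrays, with 0 wholly below, beside 26.4% and 27.1% of all genes. Of 25 fatty acid genes 5 fell and 3 rose, beside 13.3% and 12.2% of all genes. The fatty acid synthase gene FASN (-1.80) and the carrier gene FABP5 (-1.99) were lowest, and 5 of 22 cholesterol genes fell. Without any 1 control array 2 or 3 cholesterol genes fell.

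**Figure D4:**
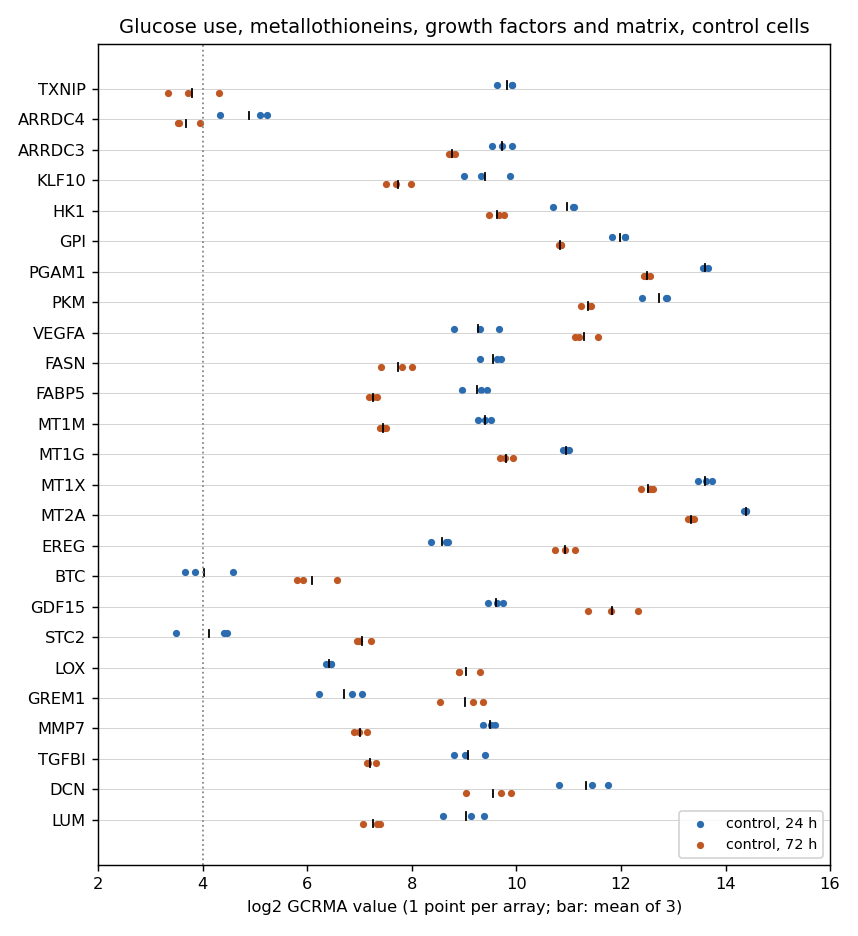
Log2 GCRMA values of 25 genes of glucose use, lipids, metal binding, growth factors and matrix in control cells, with 1 point per array at 24 h (blue) and 72 h (red), bars at the means of 3 and a dotted line at the filter level of 4. TXNIP shows the widest gap, and MT2A the narrowest spread at 24 h.

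Metallothioneins, small proteins that bind zinc and copper and are induced by metals and glucocorticoids, were lower. Of 12 genes of the metallothionein and zinc list 8 fell and 0 rose (median -0.95). MT1M went from 9.40, 9.27 and 9.51 to 7.39, 7.51 and 7.47 (-1.94 ± 0.22), and MT2A from 14.39, 14.40 and 14.36 to 13.39, 13.29 and 13.36 (-1.03 ± 0.17, limma adjusted p = 0.00108). The groups were separate in both. MT1X (-1.10), MT1G (-1.16) and the zinc importer gene SLC39A10 (-1.37) fell, while metallothionein probe sets can share transcripts of near-identical paralogs and their members are not fully distinct. Without probe sets ending in _x_at or _s_at 4 members could be tested, of which 2 fell. Of 45 lysosome and autophagy genes 11 rose and 2 fell, among the rises WIPI1 (1.78), CTSH (1.11) and MAP1LC3B (1.03), and the alpha-galactosidase gene GLA fell (-1.47). The count of rises was 5 to 8 with any 1 control array left out, and 3 with arrays scaled to their poly-A spike-ins. Of 18 selenoprotein genes 5 rose and 2 fell. The ER residents SELENOK (1.67) and SELENOS (1.06) were among the rises and SELENON among the falls (-1.45). Without any 1 control array 3 selenoprotein genes rose. Of 25 NRF2 genes 2 rose and 6 fell, beside 12.2% and 13.3% of all genes. SLC7A11 was 1 of the rises and AKR1C1 the lowest fall (-2.04). With any 1 control array left out 3 to 5 NRF2 genes fell, with 3 without 24 h replicate 1 or 72 h replicate 1 or 2, and in the 6 control arrays alone 5 rose and 11 fell.

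Secreted growth regulators changed in both directions. Of 19 genes of the EGF list 6 rose and 1 fell. The EGF receptor ligand genes EREG, from 8.70, 8.37 and 8.66 to 10.74, 10.92 and 11.12 (2.35 ± 0.23), and BTC (2.07) rose, and HBEGF fell (-1.04), a call lost without 24 h replicate 1 or 3 or 72 h replicate 1 or 2 (-0.94 to -0.88). EGFR, their receptor gene, did not pass (0.19 ± 0.20). Of 18 hormone and growth regulator genes 5 rose, INHBE, STC2 (2.93), GREM1 (2.31), GDF15 (2.23) and SPX (1.73), and 3 fell, GAL most. The call of GREM1 ended without 24 h replicate 3 (2.07) or 72 h replicate 3 (2.14). GDF15, a stress hormone gene, had values of 9.74, 9.62 and 9.46 at 24 h and 11.81, 11.36 and 12.32 at 72 h.

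Of 19 cytoskeleton genes 10 fell and 1 rose (median -0.79), with the tubulin genes TUBA1A (-1.86) and TUBB6 (-1.79), the myosin light chain gene MYL9 (-1.71), VCL (-1.53) and ACTB (-0.79 ± 0.14) among the falls. VIM did not pass (-0.32). Of 34 matrix and TGF-beta genes 11 fell and 3 rose. The protease genes MMP7 (-2.48 ± 0.20) and MMP1 (-2.53, with a 72 h mean of 3.22, near background), the adhesion gene TGFBI (-1.86) and the collagen genes COL6A2 (-1.28) and COL6A1 (-0.98) fell. LOX, the collagen crosslinking enzyme gene, rose from 6.46, 6.35 and 6.46 to 8.91, 8.90 and 9.30 (2.61 ± 0.25). Without probe sets ending in _x_at or _s_at COL6A2 did not pass (-0.19). Of 41 epithelial junction genes 3 rose and 5 fell, shares that do not exceed those of all genes. These counts were 1 to 5 and 5 to 9 with any 1 control array left out, and 8 and 8 in the 6 control arrays alone. The splicing factor gene ESRP1 (2.07), CDH1, which encodes E-cadherin (1.06), and EPCAM (0.61) rose, and the pore-forming CLDN2 fell (-1.51). The call of CDH1 ended without 24 h replicate 2 or 72 h replicate 1 or 3 (0.94 to 1.04), and that of EPCAM without 24 h replicate 2 or any 1 of the 72 h arrays (0.41 to 0.64).

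Some markers of other cell types also changed, in both directions. The fibroblast markers DCN, from 11.45, 11.75 and 10.82 to 9.89, 9.70 and 9.04 (-1.79 ± 0.41), and LUM (-1.77 ± 0.22) fell, and COL1A1 (-1.03 ± 0.36) did not pass in the fit of all arrays. COL1A1 passed with quantile normalization (-1.10), with centring (-1.03) and in the 6 control arrays alone (-1.03). The mean of the 8 fibroblast markers was 5.25 to 5.31 at 24 h and 4.65 to 4.77 at 72 h, while COL1A2, COL3A1, PDGFRA, PDGFRB and THY1 lay under 4 on all control arrays. The podocyte marker PTPRO fell (-1.35 ± 0.23), with means of 12.44 at 24 h and 11.08 at 72 h, and NPHS1 and WT1 were under 4. PODXL (means of 4.39 at 24 h and 4.05 at 72 h) and SYNPO (5.07 and 5.04) did not pass in the fit of all arrays. The endothelial marker ESAM rose (1.07 ± 0.29), a call lost without 24 h replicate 1 (1.07) or 72 h replicate 3 (0.89), while PECAM1, CDH5 and VWF were under 4. In bulk RNA, fewer cells of a type and less RNA per cell cannot be told apart, and the part of these markers in the changes above was not tested.

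The time change in cells given Ota was set against that in control cells. The group means behind these changes share no array. The filter, the choice of probe sets and the spread behind the p-values came from Ota and control arrays together. The calls in Ota cells and in control cells are therefore not independent of each other. In Ota cells 3966 genes rose (37.0%) and 2500 fell (23.3%) from 24 h to 72 h, and the difference of the time changes passed for 3178 genes with the higher change under Ota (29.6%) and 2135 with the lower (19.9%). These splits depend on the scaling, since higher changes made up 59.8% of the calls of the difference in the deposited values, 46.9% with arrays centred on their medians, 52.6% with quantile normalization and 91.9% with scaling to poly-A spike-ins. Of the 1313 genes that rose in control cells 545 rose, 223 fell and 545 made no call under Ota, and of the 1426 that fell 480 fell, 407 rose and 539 made no call.

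The time change was higher under Ota for 40 of 43 mitosis genes and for 32 of 39 replication genes, and lower for 0 of both. After centring these counts were 38 and 29. The difference subtracts the control change, and the lists were chosen with earlier results of these data known. For lists that fell in control cells a higher change under Ota was therefore favoured in advance, and for risen lists a lower one. MKI67 rose under Ota (1.81) where it fell in control cells, a difference of 4.22 (limma adjusted p = 8.64e-06). POLQ rose by 3.71 against -2.98, a difference of 6.70. Values in this paragraph are changes over time, and they do not show whether levels under Ota already differed from control levels at 24 h. The smallest p of the difference among the changed genes were those of POLQ, CDC7, SDF2L1, GCAT, AFF3, TRIP13, TMEM201 and CDC45. ATF4 response genes had a lower change under Ota for 20 of 31 and a higher one for 3, against 12 and 5 with that poly-A scaling, and ER genes for 22 and 1 of 30, against 11 and 2. ASNS fell under Ota (-0.84) and CHAC1 did not pass (-0.08). Not all stress genes differed. HSPA5 rose by 2.39 under Ota and 2.54 in control cells, and the difference of -0.15 did not pass (adjusted p = 0.604). TRIB3 (1.75 and 2.00), GDF15 (2.04 and 2.23), CTH (2.98 and 2.77) and INHBE (4.98 and 5.88, difference -0.89, adjusted p = 0.184) likewise made no call of a difference. Among the falls, CRYM (-3.47 and -3.15) and SCN3A (-3.04 and -3.74) made no call of a difference, although that of SCN3A passed with the poly-A scaling (1.66, limma adjusted p = 0.0405). TXNIP fell less under Ota (-3.05, difference 2.98). Metallothionein genes fell further under Ota, with a lower change for 9 of 12, against 3 with the poly-A scaling.

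**Figure D5:**
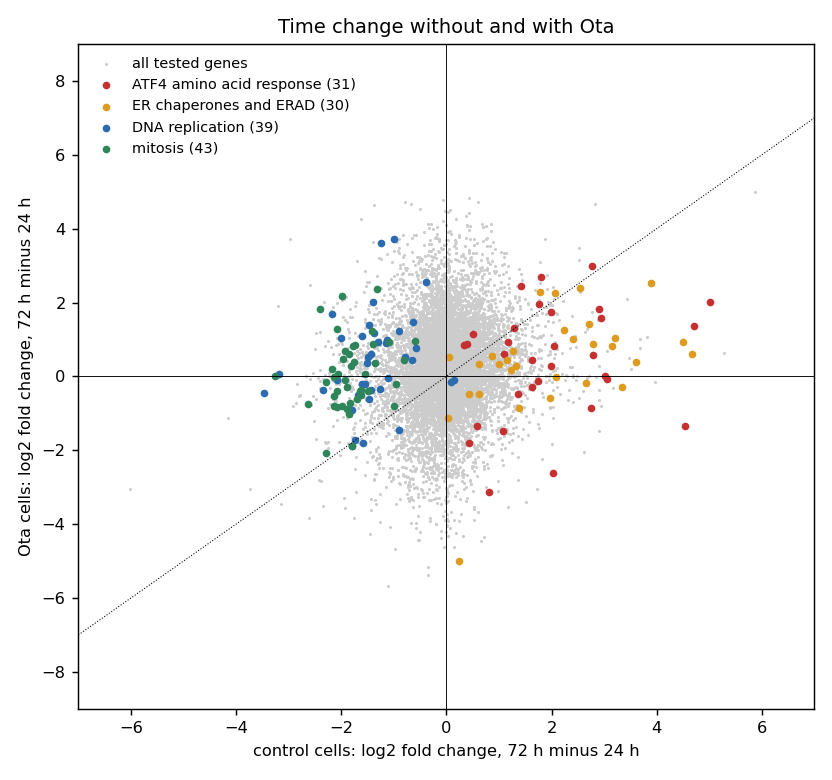
Log2 fold change from 24 h to 72 h in control cells (horizontal) and Ota cells (vertical) for the 10729 tested genes, with members of 4 lists in colour and a dotted line of equal changes. Mitosis and replication genes lie left of 0, except for 2 replication genes, and mostly above the dotted line, and ATF4 and ER genes lie right of 0 and mostly below it.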

How the data were processed

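Labelled cRNA from HK-2 cells was measured on 12 Affymetrix arrays. The deposited values are log2 expression values, made by the authors with GCRMA per the submitters' processing notes; its version and the set of arrays normalized together are not given in the sources used here. Of 54675 probe sets 41097 had 1 gene symbol, 1801 several and 11777 none. A gene was represented by the probe set of highest mean among those over 4 on at least 3 of 12 arrays, which left 10729 genes. Group means were fitted with limma 3.58.1 in R 4.3.3 on all 12 arrays, with Benjamini-Hochberg adjustment over all genes and a threshold of 0.05, and the script was tested on simulated data. Alternatives were quantile normalization, centring, poly-A scaling, other filters and probe set rules, the 6 control arrays alone, the replicate block and each control array left out. No read depth exists for arrays, and their number limits the precision.

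The members and gene lists were chosen with earlier results of these data known. Genes were picked for naming by rules. The first took the 12 that rose and the 12 that fell by most with groups apart. Another took the 8 largest each way among genes with means over 6 at both times. From each list came up to 5 members in its main direction and 2 in the other (or the 2 of smallest p). The 8 of smallest p of the difference and cell type markers were also picked. Not all picked genes and not all lists tested are described above. Lists left out include those of interferon, NF-kB, heat shock, apoptosis and circadian genes. Further genes were added for their known roles after their values were seen. Promoter windows of 250 bases are from RefSeq (GRCh38.p14).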

Additional observations from a re-analysis of the deposited data

Results flagged for a closer look

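The change from 24 h to 72 h differed between Ota and control cells for 5313 genes by limma's test of the difference at an adjusted p under 0.05. Each value below is the log2 change with Ota minus that in control cells. The genes were picked by their control change, which the difference subtracts, or by the difference itself. For the largest rises a lower change with Ota, and for the largest falls a higher one, was therefore favoured in advance. Among the largest control rises the change was lower with Ota for ALDH1L2 (-5.86), ATF3 (-4.64), SCG5 (-4.14), SDF2L1 (-4.07), ERO1B (-3.59), SLC7A11 (-3.34), DDIT3 (-3.02), BEX2 (-2.92), DNAJC12 (-2.75), CADPS2 (-2.67) and ERN1 (-1.38). With arrays scaled to their poly-A spike-ins ERN1 (-0.41) and DNAJC12 (-1.78) no longer passed. Among the largest control falls it was higher for POLQ (6.70), SPC25 (5.11), NCAPH (3.28), MCM10 (3.26), GINS4 (3.02), GAL (3.01), TXNIP (2.98), UHRF1 (2.64), ASF1B (2.14) and BLM (2.11). Of the other genes with the smallest p of the difference, it was higher for CDC7 (4.71), TMEM201 (4.09), CDC45 (3.88) and TRIP13 (3.19) and lower for GCAT (-5.06) and AFF3 (-3.83).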

How the results depend on the processing

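The count of changed genes in control cells was 2739 (1313 risen, 1426 fallen). Other settings gave totals of 1280 (576, 704) with arrays scaled to their poly-A spike-ins, which raised the median SE to 0.301 and kept 1275 of the 2739, 1547 (719, 828) at an adjusted p under 0.01, 1210 (586, 624) with a log2 fold change of at least 1, and 4347 (2112, 2235) with the 6 control arrays alone, which kept 2679. Without probe sets ending in _x_at or _s_at 917 genes fell, of 8055 tested. Leaving out 1 control array in turn gave 1913 to 2303 (904 to 1164 risen, 994 to 1183 fallen). For Ota cells 3868 of 6466 had a log2 fold change of at least 1.

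The replicate number as a block gave 2810 calls (1348 risen, 1462 fallen), 2595 of them shared, and 4404 (2135, 2269) in the 6 control arrays alone. Same-numbered control arrays had correlations of deviations of 0.22, 0.084 and 0.17, and 2 of 3 matched their own number best. The median SE was 0.2 with the block and 0.212 without. The labels do not say that equal numbers mark pairs, and the main fit did not take them as pairs. These values do not decide whether they are.

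Of 280 genes picked for naming that passed, 204 still did with the poly-A scaling, 241 with no filter and 275 with quantile normalization. Without 1 control array 229 to 246 did. Signs turned for HSPA4 (0.374) and TSR1 (0.02) without _x_at and _s_at probe sets, for RFC5 (-0.931) as the mean over its probe sets, and for the differences of INHBE (0.067) and CRYM (0.651) with the poly-A scaling. With 1 control array left out the ranges were -0.067 to 0.11 for ERO1A, -0.177 to 0.004 for GAPDH, -0.035 to 0.186 for PRIM1, -0.1 to 0.378 for RFC5 and -0.206 to 0.046 for TMEM120A, none of which passed. The same ranges were -0.0314 to 0.0195 for the difference in the median of tested genes, -0.0572 to 0.131 for poly-A spike-ins, -0.0081 to 0.241 for hybridization controls, -0.00332 to 0.00599 for GAPDH 3' minus 5' and -0.108 to 0.171 for the percent of probe sets over 4. The causes were not tested. With 3 arrays a group and values under 4 near background, their number limits the precision.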
